A study of Danio rerio with 24 samples.

Results

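The genes described here encode the ligands, antagonists, receptors and transducers of bone morphogenetic protein (BMP) and transforming growth factor beta (TGF-beta) signaling, together with the Id genes. They were chosen by symbol, as every gene whose lower-case name begins with one of a fixed set of stems (among them bmp, bmper, gdf, tgfb, inhb, acvr, smad, id1 to id4, nog, chrd, fst, bambi, ndr, lft). Family symbols written in capitals were not matched and are not counted. The rule found 63 of the 16361 genes listed after 1 h of treatment, 63 of 16361 after 4 h and 71 of 18984 after 8 h. Members listed only at 8 h included bmp16, fstb, fstl4, fstl5, gdf7, lft2 and tgfb1b. One symbol, bmpr1bb, stood for 2 Ensembl genes, and chrd, nog3 and ndr2 were not analysed here. A few members were grouped as matched by name only, such as bmp2k, a kinase, tgfbi, an extracellular matrix protein, and the follistatin-like genes. Whether these act in the pathway was not examined.

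RNA was taken from whole zebrafish embryos of the strain Tg(snail1b:GFP), a reporter line in which a fragment of the snai1b promoter drives GFP, so that every group carried the same transgene. Embryos were exposed from 13 hpf (8 somites) to TP-0903, a multi-kinase inhibitor first designed against the receptor tyrosine kinase AXL, or to DMSO, its solvent, for 1 h (14 hpf, 10 somites), 4 h (17 hpf, 16 somites) or 8 h (21 somites, given in the labels as 19.5 hpf). Each library pooled 35 embryos, and each of the 6 groups had 4 libraries, which the study's methods call biological replicates. The sources used here give neither the dose of TP-0903 for these samples nor the clutches the libraries came from, so that the p-values measure only the spread between these libraries.

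BMP ligands bind type I and type II serine/threonine kinase receptors, which phosphorylate Smad1, Smad5 and Smad9, whereas activin, Nodal and TGF-beta ligands act through Smad2 and Smad3. Both branches share Smad4, are restrained by the inhibitory Smads Smad6 and Smad7, and are held back outside the cell by secreted proteins such as Noggin and Follistatin. In the early zebrafish embryo a BMP gradient patterns the dorsoventral axis, and later BMP signaling acts in the epidermis, the neural plate border, the dorsal retina, the heart and the tailbud. Id genes, which encode helix-loop-helix proteins that lack a DNA-binding domain, are well-known targets of BMP signaling.

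Total counts on genes were between 3879310 and 10582470 per library. In the 1 h series DMSO replicate 4 and TP-0903 replicate 3 stood apart most clearly, and TP-0903 replicate 1 leaned the same way. Its deviations from the group mean correlated at 0.50 with those of DMSO replicate 4. With those of DMSO replicates 1 to 3 they correlated at -0.25, -0.42 and -0.36. The first principal component of the spread within treatments held 73.5% of that variance, against 40.7% at 4 h and 27.7% at 8 h. The gene cyp26a1, which encodes a retinoic acid-degrading enzyme and was used as a check of the treatment, had 44.9 ± 3.69 CPM in DMSO and 769 ± 287 CPM in TP-0903 libraries at 4 h (log2 fold change 4.10, SE 0.25, edgeR adjusted p = 4.15e-05). It was also higher at 8 h (30.2 ± 2.88 against 201 ± 67.6 CPM, log2 fold change 2.73, SE 0.20, edgeR adjusted p = 3.36e-07). At 1 h it had 55.5 ± 24.5 CPM in DMSO and 389 ± 77.4 CPM in TP-0903 libraries and was not called (log2 fold change 2.81, SE 0.29, edgeR adjusted p = 0.0635), although the groups did not overlap. In whole embryos, fewer cells of a type and less RNA per cell cannot be told apart.

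The members differed widely in level. By median FPKM, a read count scaled to gene length and library size, in the DMSO libraries, id1 was the highest member at each time (467 at 1 h, 605 at 4 h and 395 at 8 h). It was followed each time by fstl1b, which encodes a secreted follistatin-like protein (99.7, 113 and 96.1 FPKM), and by id3 (78.1, 87.9 and 66.2 FPKM). The ranges of these 3 genes over the 4 DMSO libraries did not overlap at any of the times. The lowest members were bmp1b at 1 h (1.06 FPKM), inhbaa at 4 h (1.18 FPKM) and fstl5 at 8 h (0.40 FPKM). At 8 h the ligand genes bmp4 and bmp2b had 11.98 and 6.82 FPKM, which lay between the type I receptor gene bmpr1aa (38.0 FPKM) and the type II receptor genes bmpr2a (5.89 FPKM) and bmpr2b (5.86 FPKM). These tables were made separately for each time, so levels were not tested between times.

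After 8 h of TP-0903 treatment 29 of the 67 members tested (43.3%) had changed, 11 upward (16.4%) and 18 downward (26.9%). Over all 17478 genes tested at 8 h, 28.9% were called, with 15.4% above and 13.5% below DMSO (edgeR quasi-likelihood test, Benjamini-Hochberg adjusted p under 0.05). The share of members that rose was thus near that of all genes, and the share that fell was larger than that of all genes. The median log2 fold change was -0.11 over the members and -0.01 over all genes. The antagonists lft1, fsta and fstb, the activin subunit gene inhbaa, the BMP receptor gene bmpr1ba and the BMP target id3 were among those that fell. The genes smad3b, gdf11 and tgfb2 were among those that rose. Of other genes induced by the pathway, bambia, smad6a, smad6b and smad7 were not called, and the Id gene id4 rose. After 4 h, 3 members had changed, and after 1 h none was called. The spread between libraries differed between these tests, so their counts do not measure how the response grew. Its fitted value over all genes (edgeR common dispersion) was largest in the 1 h series, 0.067, against 0.0186 (4 h) and 0.0108 (8 h). The median absolute log2 fold change of the members was 0.124 (1 h), 0.119 (4 h) and 0.289 (8 h). The groups did not overlap for 28 members at 8 h, 26 of them called, where 28.9% of all genes had groups that did not overlap. For each of these the exact two-sided permutation test of 4 libraries against 4 gave p = 0.0286, the smallest it allows. That value follows whenever groups do not overlap, so it adds nothing to the separation itself. DESeq2 called 27 of the 29, and 25.9% of all genes.

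**Figure D1:**
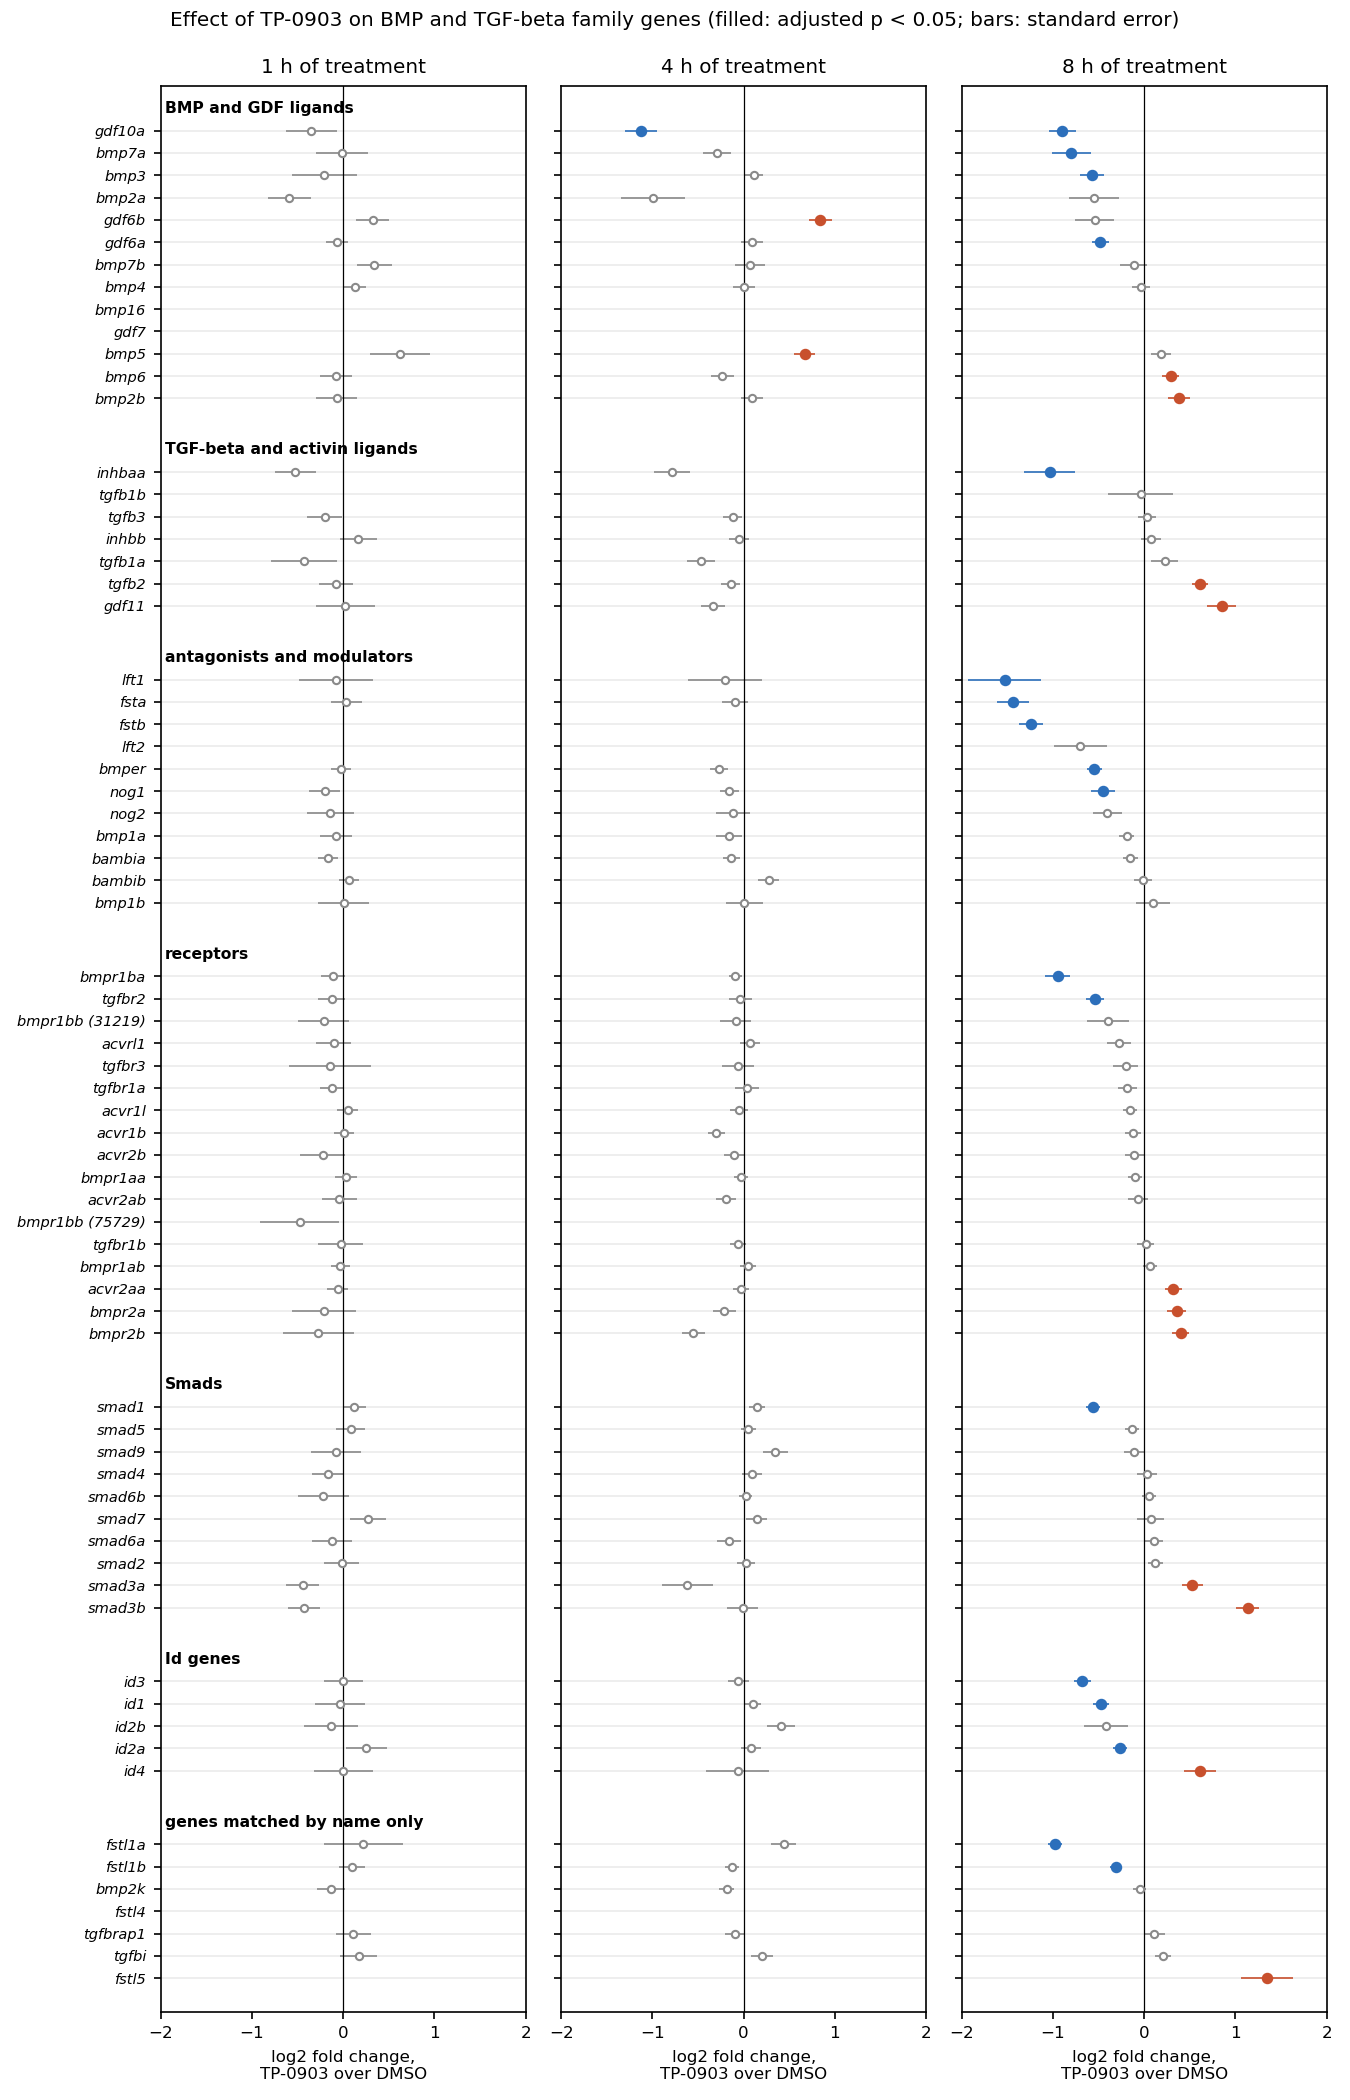
Log2 fold change of the members in TP-0903-treated over DMSO embryos after 1, 4 and 8 h, in rows grouped by role, with bars for the standard error. Filled points passed an adjusted p under 0.05 (red higher, blue lower). No point is filled at 1 h, 3 are filled at 4 h (gdf6b, bmp5 and gdf10a) and 29 at 8 h, and rows without a point were not listed or not tested.

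Markers of several tissues also differed at 8 h, when 15.4% of all genes were higher and 13.5% lower. The summed level of 12 skeletal muscle genes was 26174 to 31311 CPM (read counts scaled to the normalised library size) in the DMSO libraries and 39580 to 43443 CPM in the TP-0903 libraries, with 8 of the 12 higher and 2 lower. Most of this sum came from the titin genes ttna (mean 10788 against 16428 CPM) and ttnb (10602 against 16671 CPM), and those lower were smyhc1 and acta1a. All 8 epidermal genes were lower (sum 13658 to 16847 against 11422 to 13622 CPM), as were 4 of 5 endothelial genes (sum 218 to 247 against 155 to 172 CPM). Neuronal genes were higher in 7 of 9 cases (sum 599 to 699 against 792 to 896 CPM). Of 6 heart genes 2 were lower (sum 152 to 171 against 102 to 140 CPM). These were vmhc (mean 86.4 against 57.9 CPM) and hand2 (mean 11.9 against 8.67 CPM). Of 5 tailbud genes tested 1 was lower (sum over the 8 listed 54.2 to 91.2 against 42.6 to 53.2 CPM). Of 11 genes of the eye field and retina 2 were higher, and of 10 erythroid genes 3 were higher and 3 lower. No listed marker was at 0 in every library. The part of these shifts in the results for the members was not tested. At 4 h 1 gene of these lists was called, a tailbud gene that was lower, beside 0.74% of all genes called. At 1 h none was called.

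Among the BMP and GDF ligands tested at 8 h, 4 of 11 fell, 2 rose and 5 were not called. Of all genes 13.5% fell and 15.4% rose, so the share of these ligands that rose was near that of all genes. Those that fell were gdf10a, bmp7a, bmp3 and gdf6a. The gene gdf10a encodes a ligand related to BMP3 (ENSDARG00000095378) and measured 8.82, 9.09, 10.1 and 10.3 CPM in DMSO libraries 1 to 4 and 4.02, 5.43, 5.65 and 5.30 CPM in TP-0903 libraries 1 to 4. All TP-0903 libraries lay below all DMSO libraries (log2 fold change -0.90, SE 0.15, edgeR adjusted p = 0.00048). The ligand gene bmp7a, which acts with bmp2b in early dorsoventral patterning (ENSDARG00000018260), measured 5.53, 5.76, 4.52 and 5.24 CPM in DMSO libraries 1 to 4 and 2.23, 3.88, 3.61 and 2.17 CPM in TP-0903 libraries 1 to 4. Its level was low and its groups were close to each other without overlapping (log2 fold change -0.80, SE 0.21, edgeR adjusted p = 0.0121). For gdf6a, a ligand gene known in zebrafish for dorsal retina patterning (ENSDARG00000053479), the values were 33.8, 32.2, 36.6 and 31.6 CPM in DMSO libraries 1 to 4 and 23.8, 26.6, 24.7 and 21.1 CPM in TP-0903 libraries 1 to 4. Again no library overlapped (log2 fold change -0.48, SE 0.10, edgeR adjusted p = 0.00195). The level of bmp3, which encodes a ligand that can oppose other BMPs, was 16.8 to 21.9 CPM with DMSO and 10.4 to 15.2 CPM with TP-0903 (log2 fold change -0.57, SE 0.13, edgeR adjusted p = 0.00477). This call was lost when all libraries were thinned to the smallest total (adjusted p = 0.0872).

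The ligand genes that rose at 8 h were bmp2b and bmp6, both by small amounts. The gene bmp2b (ENSDARG00000041430) measured 11.6, 11.1, 13.2 and 12.5 CPM in DMSO libraries 1 to 4 and 16.5, 17.3, 16.0 and 13.4 CPM in TP-0903 libraries 1 to 4. The lowest TP-0903 library was only just above the highest DMSO library (log2 fold change 0.38, SE 0.12, edgeR adjusted p = 0.0262). For bmp6 the range was 22.6 to 27.3 CPM with DMSO and 29.0 to 33.9 CPM with TP-0903 (log2 fold change 0.29, SE 0.10, edgeR adjusted p = 0.038). Neither call held under every alternative. DESeq2 gave adjusted p = 0.0557 for bmp2b and 0.0695 for bmp6, and thinning gave 0.106 for each. The bmp2b call was lost without DMSO replicate 1 or 2 or without TP-0903 replicate 1, 2 or 3 (adjusted p 0.0583 to 0.0846), and the bmp6 call without DMSO replicate 1 or 2 or TP-0903 replicate 1 or 2 (0.0866 to 0.119). The level of bmp4, a ligand gene transcribed in the tailbud, the heart and the dorsal retina, was 39.9, 35.1, 37.2 and 29.1 CPM in DMSO libraries 1 to 4 and 32.9, 33.9, 36.4 and 34.1 CPM in TP-0903 libraries 1 to 4. The groups overlapped and the fitted difference was close to 0 (log2 fold change -0.04, SE 0.10, with a range of 2 SE from -0.24 to 0.16). The remaining ligands measured -0.55 (bmp2a), -0.54 (gdf6b), -0.11 (bmp7b) and 0.18 (bmp5) on the log2 scale and were not called.

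Among the TGF-beta and activin ligands, tgfb2 and gdf11 rose, inhbaa fell and 4 of 7 were not called. Beside this, 28.9% of all genes were called. The gene tgfb2 encodes a TGF-beta ligand (ENSDARG00000027087) and measured 36.2, 32.8, 31.3 and 28.8 CPM in DMSO libraries 1 to 4 and 50.4, 47.8, 49.7 and 48.9 CPM in TP-0903 libraries 1 to 4. Its spread between libraries was small beside the difference (log2 fold change 0.61, SE 0.08, edgeR adjusted p = 0.000119). The gene gdf11, whose product acts through activin receptors and patterns the trunk-to-tail axis in mouse (ENSDARG00000044924), measured 4.87, 7.37, 7.83 and 6.33 CPM in DMSO libraries 1 to 4 and 11.5, 13.2, 13.1 and 10.0 CPM in TP-0903 libraries 1 to 4. All TP-0903 libraries were above all DMSO libraries (log2 fold change 0.85, SE 0.16, edgeR adjusted p = 0.0013). The level of inhbaa, which encodes a subunit of activin, was 3.55, 2.07, 4.52 and 3.60 CPM in DMSO libraries 1 to 4 and 2.08, 2.00, 1.44 and 1.21 CPM in TP-0903 libraries 1 to 4. It rested on few reads (27, 18, 41 and 33 with DMSO and 14, 18, 12 and 10 with TP-0903), and DMSO replicate 2 lay within the TP-0903 range (log2 fold change -1.04, SE 0.28, edgeR adjusted p = 0.0128). With all libraries thinned to the smallest total its log2 fold change was -0.53 and its adjusted p = 0.365. The other TGF-beta gene fixed for naming, tgfb3, differed by 0.03 (SE 0.10) on the log2 scale with overlapping groups.

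The secreted and membrane-bound antagonists and modulators fell or were not called. Of 12 tested 5 fell (lft1, fsta, fstb, bmper and nog1) and none rose, with a median log2 fold change of -0.43. The 12 were not all antagonists, and included bmp1a and bmp1b, which were not called (log2 fold changes -0.19 and 0.09). Over all genes 13.5% fell and 15.4% rose, so that few rises would stand among 12 genes at that share. Follistatin, which binds and blocks activin and some BMPs, is encoded by a pair of genes in zebrafish, and both fell. The first, fsta (ENSDARG00000052846), measured 99.5, 96.7, 92.6 and 105 CPM in DMSO libraries 1 to 4 and 25.3, 26.7, 38.6 and 53.8 CPM in TP-0903 libraries 1 to 4. Every TP-0903 library was far below every DMSO library, although the TP-0903 libraries also spread more widely (log2 fold change -1.44, SE 0.17, edgeR adjusted p = 3.4e-05). The second, fstb (ENSDARG00000057992), measured 22.9, 23.1, 25.4 and 25.5 CPM in DMSO libraries 1 to 4 and 10.1, 10.9, 12.1 and 7.83 CPM in TP-0903 libraries 1 to 4. It was listed only at 8 h and its groups were far apart (log2 fold change -1.24, SE 0.13, edgeR adjusted p = 8.25e-06).

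The gene lft1 encodes Lefty1, a feedback inhibitor of Nodal (ENSDARG00000019920), and had the largest negative fold change of any member tested at 8 h. Its level was 4.34, 7.14, 6.62 and 9.60 CPM in DMSO libraries 1 to 4 and 1.19, 5.21, 2.17 and 0.723 CPM in TP-0903 libraries 1 to 4. TP-0903 replicate 2 lay inside the DMSO range and the others below it (log2 fold change -1.53, SE 0.40, edgeR adjusted p = 0.0107). The counts behind these values were 33, 62, 60 and 88 with DMSO and 8, 47, 18 and 6 with TP-0903. Its paralogue lft2 measured 1.96 to 2.5 CPM with DMSO and 0.595 to 1.69 CPM with TP-0903, with groups that did not overlap and a difference that was not called (log2 fold change -0.70, SE 0.29, edgeR adjusted p = 0.0855).

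Of the BMP-binding proteins, bmper, a member of the crossveinless-2 family, measured 40.4, 44.6, 44.1 and 43.8 CPM in DMSO libraries 1 to 4 and 27.2, 31.1, 31.8 and 28.1 CPM in TP-0903 libraries 1 to 4. The groups were well separated (log2 fold change -0.55, SE 0.08, edgeR adjusted p = 0.000274). The Noggin gene nog1 measured 15.0, 12.2, 16.8 and 17.1 CPM in DMSO libraries 1 to 4 and 11.6, 11.8, 11.2 and 10.1 CPM in TP-0903 libraries 1 to 4. Its groups were close to each other, with DMSO replicate 2 just above the highest TP-0903 library (log2 fold change -0.45, SE 0.13, edgeR adjusted p = 0.017), and the call was lost without DMSO replicate 3 (adjusted p = 0.0514). The other Noggin gene, nog2, was at 8.17 to 10.0 CPM with DMSO and 5.18 to 7.88 CPM with TP-0903 and was not called (log2 fold change -0.40, SE 0.16, edgeR adjusted p = 0.0653). The pseudoreceptor gene bambia, itself induced by BMP in many tissues, was at 44.5 to 50.8 CPM with DMSO and 39.5 to 47.4 CPM with TP-0903, with overlapping groups (log2 fold change -0.15, SE 0.08, edgeR adjusted p = 0.192).

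Of 16 receptor genes tested 3 rose (bmpr2b, bmpr2a and acvr2aa, all type II receptors), 2 fell (bmpr1ba and tgfbr2) and 11 were not called, where 28.9% of all genes were called. The type I BMP receptor gene bmpr1ba (ENSDARG00000005600) measured 45.1, 45.9, 44.7 and 49.6 CPM in DMSO libraries 1 to 4 and 18.0, 30.7, 27.1 and 19.8 CPM in TP-0903 libraries 1 to 4. The DMSO libraries were tightly grouped and every TP-0903 library was lower (log2 fold change -0.95, SE 0.14, edgeR adjusted p = 0.00017). The type II TGF-beta receptor gene tgfbr2, described here after its values were seen, was at 47.4 to 54.5 CPM with DMSO and 30.5 to 41.7 CPM with TP-0903 (log2 fold change -0.54, SE 0.10, edgeR adjusted p = 0.00116).

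The type II BMP receptor gene bmpr2b (ENSDARG00000020057) measured 25.0, 26.4, 23.6 and 25.0 CPM in DMSO libraries 1 to 4 and 34.7, 36.0, 30.4 and 30.7 CPM in TP-0903 libraries 1 to 4. No library overlapped (log2 fold change 0.40, SE 0.09, edgeR adjusted p = 0.00464). Its paralogue bmpr2a was at 24.6 to 31.7 CPM with DMSO and 33.0 to 42.4 CPM with TP-0903 (log2 fold change 0.36, SE 0.10, edgeR adjusted p = 0.0177), a call that was lost without DMSO replicate 1 (adjusted p = 0.0503) or TP-0903 replicate 1 (0.0721), or when thinned (0.0631). The activin type II receptor gene acvr2aa was at 56.7 to 65.7 CPM with DMSO and 65.2 to 87.3 CPM with TP-0903, with TP-0903 replicate 4 inside the DMSO range (log2 fold change 0.32, SE 0.09, edgeR adjusted p = 0.019), and this call was lost without DMSO replicate 1 or 2 or TP-0903 replicate 2 or 3 (adjusted p 0.0528 to 0.0714). The type I BMP receptor genes bmpr1aa and bmpr1ab differed by -0.10 (SE 0.07) and 0.07 (SE 0.08) on the log2 scale and were not called. Nor were acvr1l, which encodes a further type I BMP receptor (-0.15, SE 0.08), or the bmpr1bb gene that could be tested, the paralogue of bmpr1ba (-0.39, SE 0.23), which was at 4.21 to 6.55 CPM with DMSO and 2.41 to 5.43 CPM with TP-0903.

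Among the Smad genes, smad3a and smad3b, which encode the activin and TGF-beta transducer Smad3, both rose. The gene smad1, one of the genes for BMP transducers, fell, and 7 of 10 were not called. The share of Smad genes called was thus near the 28.9% called over all genes. The gene smad3b (ENSDARG00000010207) measured 8.68, 7.48, 7.39 and 7.64 CPM in DMSO libraries 1 to 4 and 19.0, 18.3, 15.5 and 15.5 CPM in TP-0903 libraries 1 to 4. Each TP-0903 library was well above every DMSO library (log2 fold change 1.13, SE 0.12, edgeR adjusted p = 1.37e-05). The gene smad3a (ENSDARG00000036096) measured 14.9, 19.9, 22.3 and 19.0 CPM in DMSO libraries 1 to 4 and 27.8, 28.7, 28.3 and 25.1 CPM in TP-0903 libraries 1 to 4. Here too the groups did not overlap (log2 fold change 0.53, SE 0.12, edgeR adjusted p = 0.00391).

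The gene smad1 (ENSDARG00000027199) measured 74.6, 71.0, 72.9 and 69.5 CPM in DMSO libraries 1 to 4 and 45.2, 50.0, 47.6 and 51.9 CPM in TP-0903 libraries 1 to 4. The spread within each group was a few CPM, and all TP-0903 libraries were lower (log2 fold change -0.56, SE 0.07, edgeR adjusted p = 6.34e-05). The other BMP-branch Smads, smad5 and smad9, differed by -0.13 (SE 0.08) and -0.11 (SE 0.12) on the log2 scale and were not called, and neither were smad2 (0.12) and the shared smad4 (0.03). The inhibitory Smads, whose genes are induced by the pathway itself, were not called either. Their log2 fold changes were 0.11 (SE 0.10) for smad6a, 0.05 (SE 0.08) for smad6b and 0.07 (SE 0.15) for smad7.

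Of the 5 Id genes 3 fell (id1, id3 and id2a), 1 rose (id4) and 1 was not called (id2b). Among all genes 13.5% fell and 15.4% rose. The gene id3 (ENSDARG00000054823) measured 80.9, 70.9, 92.2 and 76.8 CPM in DMSO libraries 1 to 4 and 44.2, 55.0, 50.6 and 49.9 CPM in TP-0903 libraries 1 to 4. All TP-0903 libraries were lower (log2 fold change -0.68, SE 0.09, edgeR adjusted p = 0.000107). The gene id1, the highest member by FPKM (ENSDARG00000040764), measured 368, 366, 426 and 485 CPM in DMSO libraries 1 to 4 and 296, 310.0, 298 and 281 CPM in TP-0903 libraries 1 to 4. The TP-0903 libraries lay close together below a wider DMSO range (log2 fold change -0.47, SE 0.09, edgeR adjusted p = 0.00115).

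The change of id2a was small, at 56.6 to 65.9 CPM with DMSO and 48.7 to 53.0 CPM with TP-0903 (log2 fold change -0.27, SE 0.08, edgeR adjusted p = 0.0173), and the call was lost without DMSO replicate 3 (adjusted p = 0.0575) or TP-0903 replicate 2 (0.0502), or when thinned (0.0904). The gene id4, known from neural progenitors in mouse, measured 5.66, 5.07, 5.62 and 4.26 CPM in DMSO libraries 1 to 4 and 8.03, 9.21, 5.89 and 8.32 CPM in TP-0903 libraries 1 to 4. The groups did not overlap, with TP-0903 replicate 3 just above the DMSO range (log2 fold change 0.61, SE 0.17, edgeR adjusted p = 0.0157), and the call was lost without TP-0903 replicate 2 (adjusted p = 0.0567) or when thinned (0.136). For id2b, at 2.76 to 5.13 CPM with DMSO and 2.00 to 3.01 CPM with TP-0903, the difference was not called (log2 fold change -0.42, SE 0.24).

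**Figure D2:**
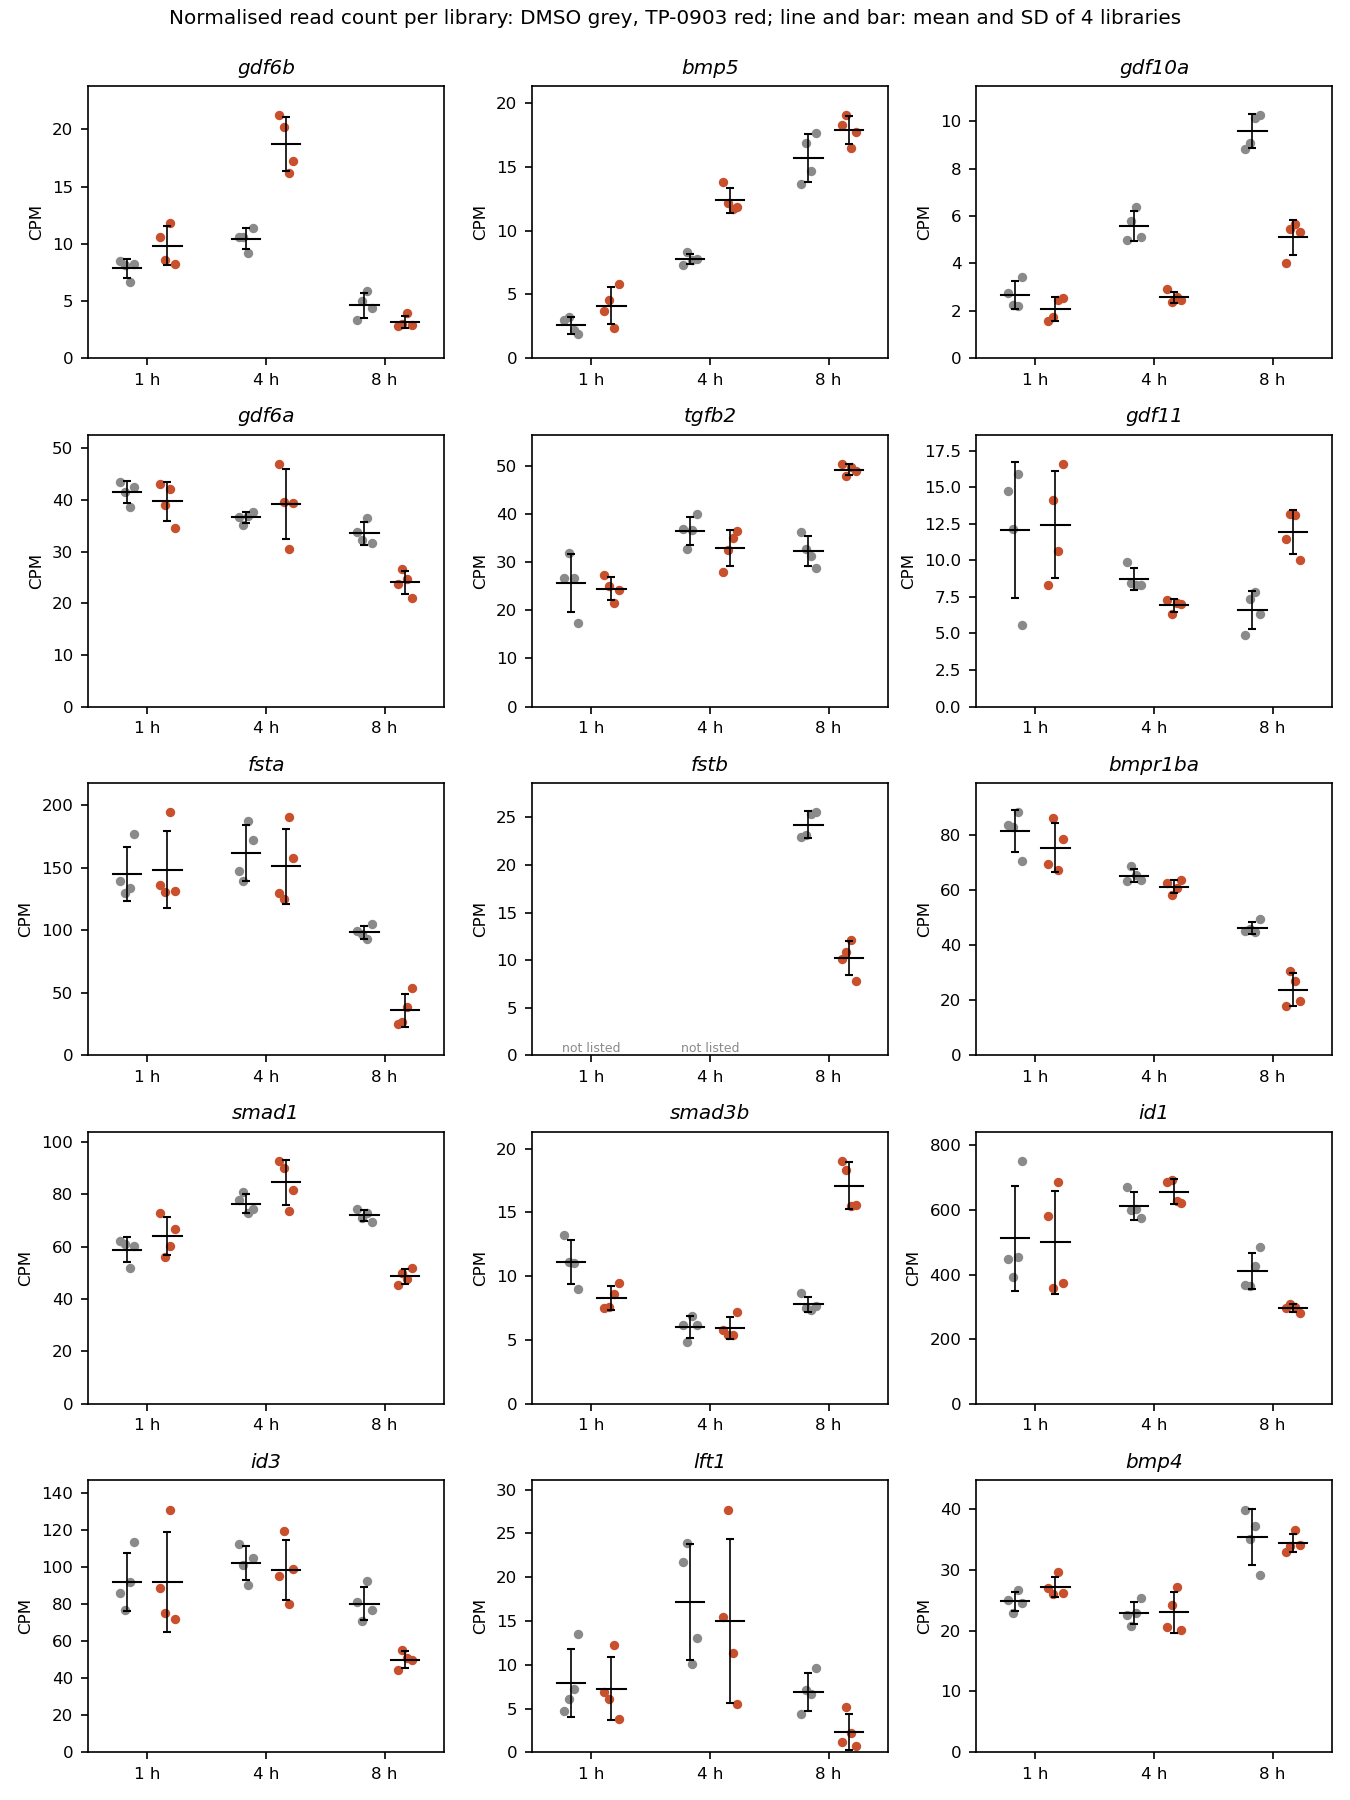
Normalised read count (CPM) of 15 members in every library at 1, 4 and 8 h, with DMSO in grey and TP-0903 in red, and with a line and bar for the mean and SD of 4 libraries. At 8 h the groups are apart for fsta, fstb, bmpr1ba, smad1, smad3b, id1, id3, tgfb2, gdf11, gdf6a and gdf10a and overlap for bmp4, bmp5, gdf6b and lft1, whereas at 4 h they are apart for gdf6b, bmp5, gdf10a and gdf11.

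Of the genes grouped as matched by name only, the follistatin-like genes that were tested all changed, where 28.9% of all genes were called. They were not counted among the antagonists and modulators above. The gene fstl1a, which encodes a secreted glycoprotein (ENSDARG00000015559), measured 86.4, 91.1, 98.8 and 89.3 CPM in DMSO libraries 1 to 4 and 41.8, 50.7, 48.1 and 44.8 CPM in TP-0903 libraries 1 to 4. It had the smallest adjusted p of any member at 8 h (log2 fold change -0.98, SE 0.08, edgeR adjusted p = 1.06e-06). Its paralogue fstl1b, described after its values were seen, was at 508 to 550.2 CPM with DMSO and 409 to 452 CPM with TP-0903 and fell by less (log2 fold change -0.31, SE 0.06, edgeR adjusted p = 0.00195). The gene fstl5 had the largest positive fold change of any member tested, from 0.658, 1.27, 1.54 and 1.20 CPM with DMSO to 2.68, 3.11, 2.29 and 3.98 CPM with TP-0903. It rested on few reads (5, 11, 14 and 11 against 18, 28, 19 and 33), although the groups did not overlap (log2 fold change 1.34, SE 0.28, edgeR adjusted p = 0.00295). The genes bmp2k, tgfbi and tgfbrap1 were not called. The 4 members too low to test at 8 h were bmp16, gdf7, fstl4 and the bmpr1bb gene ENSDARG00000075729.

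Zebrafish carry many members as pairs of duplicated genes, and 16 such pairs could be compared at 8 h. Both genes fell in 2 pairs (fsta with fstb, and fstl1a with fstl1b) and both rose in 2 (bmpr2a with bmpr2b, and smad3a with smad3b). In 6 pairs 1 gene was called and in 6 neither, where 28.9% of all genes were called. In no pair were the 2 genes called in opposite directions, which could be seen only in the few pairs with both genes called. The pair lft1 and lft2 was not among the 16. Whether the 2 genes of a pair differed from each other was not tested. Reads that fit both copies could have been dropped or assigned to 1 location during alignment, so the split between near-identical stretches is uncertain.

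After 4 h, 3 of the 62 members tested (4.84%) had changed, all of them ligand genes, where 0.74% of the 15953 genes tested were called. Members that rose were 2 (3.23%, against 0.495% of all genes) and 1 fell (1.61%, against 0.244%). The gene gdf6b, the duplicate of gdf6a (ENSDARG00000005510), measured 10.6, 10.6, 9.17 and 11.4 CPM in DMSO libraries 1 to 4 and 21.3, 20.2, 16.2 and 17.3 CPM in TP-0903 libraries 1 to 4. All TP-0903 libraries were above all DMSO libraries (log2 fold change 0.84, SE 0.13, edgeR adjusted p = 0.00933). The ligand gene bmp5 (ENSDARG00000004965) measured 7.32, 8.32, 7.67 and 7.79 CPM in DMSO libraries 1 to 4 and 13.8, 12.2, 11.7 and 11.9 CPM in TP-0903 libraries 1 to 4. The groups did not overlap (log2 fold change 0.67, SE 0.12, edgeR adjusted p = 0.0252). In the opposite direction, gdf10a measured 4.99, 5.77, 6.36 and 5.12 CPM in DMSO libraries 1 to 4 and 2.91, 2.35, 2.56 and 2.44 CPM in TP-0903 libraries 1 to 4. Its highest TP-0903 value was well below its lowest DMSO value (log2 fold change -1.13, SE 0.18, edgeR adjusted p = 0.0131).

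The gdf6b call held with each library left out. The gdf10a call was lost without DMSO replicate 3 (adjusted p = 0.0637), and the bmp5 call without any 1 of the DMSO replicates or without TP-0903 replicate 1 (0.0587 to 0.104), so that 1 member was called without DMSO replicate 3. With all libraries thinned to the smallest total the gdf10a and bmp5 calls were lost (adjusted p = 0.103 and 0.0622). At 4 h groups did not overlap for 9 members, against 6.39% of all genes, and the 6 of them that were not called were inhbaa, tgfb1a, gdf11, bmpr2b, acvr1b and id2b. DESeq2 called 4 members, bmpr2b in addition (adjusted p = 0.0261), where it called 1.33% of all genes. It measured 21.3, 23.5, 27.8 and 24.4 CPM in DMSO libraries 1 to 4 and 18.7, 13.2, 17.8 and 16.7 CPM in TP-0903 libraries 1 to 4 (log2 fold change -0.55, SE 0.13, edgeR adjusted p = 0.105). The Id genes id1 and id3, which fell at 8 h, differed by 0.10 (SE 0.08) and -0.06 (SE 0.12) on the log2 scale at 4 h, and their groups overlapped.

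For 17 of 63 members (27%) the response to TP-0903 was not the same at 8 h as at 4 h, where this held for 14.2% of 15913 genes (edgeR test of the interaction of treatment and time). For 8 of the 17 the log2 fold change was higher at 8 h (6.43% of all genes) and for 9 it was lower (7.74% of all genes). In 14 of the 17 the fitted fold changes at 4 h and 8 h had opposite signs. Of the 17, edgeR called gdf6b alone at 4 h, and several 4 h values were near 0 (smad3b -0.01, gdf6a 0.09, id1 0.10). Most of these signs at 4 h were thus not resolved from 0. Choosing members by the difference favours opposite signs, and the share over all genes was not counted. Of the 27 members called at 8 h that were also tested at 4 h, 12 had the same sign at 4 h, and gdf10a alone was called at both times. The share with the same sign over all genes called at 8 h was not counted either, and 0.74% of all genes were called at 4 h. The count over all genes fell to 1453 without TP-0903 replicate 1 of 8 h, while the count of members stayed between 15 and 19 with any library left out.

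The gene gdf6b was higher at 4 h (0.84) and measured 3.29 to 5.84 CPM with DMSO and 2.83 to 3.97 CPM with TP-0903 at 8 h (-0.54, not called). The difference between the times was -1.36 (SE 0.24), with an edgeR adjusted p of 0.00122. The follistatin-like gene fstl1a went from 0.44 at 4 h, where its groups overlapped, to -0.98 at 8 h, a difference of -1.40 (SE 0.17) (edgeR adjusted p = 4.27e-05). Follistatin gene fsta measured 147, 139, 188 and 172 CPM in DMSO libraries 1 to 4 and 129.7, 125, 191 and 158 CPM in TP-0903 libraries 1 to 4 at 4 h. These groups overlapped, and the difference between the times was -1.32 (SE 0.25) (edgeR adjusted p = 0.00232).

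Several Smad and receptor genes also differed in their response between the times. For smad3b the values at 4 h were 6.16, 4.83, 6.92 and 6.19 CPM in DMSO libraries 1 to 4 and 5.81, 5.43, 5.41 and 7.21 CPM in TP-0903 libraries 1 to 4. The groups overlapped, and the difference between the times was 1.16 (SE 0.20) (edgeR adjusted p = 0.000929). For smad3a, at 15.0 to 30.3 CPM with DMSO and 9.10 to 22.3 CPM with TP-0903 at 4 h, the difference was 1.16 (SE 0.32), a call that was lost without DMSO replicate 4 of 4 h (adjusted p = 0.0523). The receptor gene bmpr2b had every TP-0903 library below every DMSO library at 4 h and above every DMSO library at 8 h, with a difference of 0.97 (SE 0.15) (edgeR adjusted p = 0.00048). The BMP-branch gene smad1 measured 73.1 to 80.8 CPM with DMSO and 73.7 to 92.8 CPM with TP-0903 at 4 h and had a difference of -0.69 (SE 0.11) (edgeR adjusted p = 0.000763).

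Among the ligands, gdf11 was below DMSO in every TP-0903 library at 4 h (8.32 to 9.87 CPM with DMSO and 6.31 to 7.27 CPM with TP-0903) and above it at 8 h, with a difference of 1.21 (SE 0.21) (edgeR adjusted p = 0.00109). The differences of tgfb2 (0.77), tgfb1a (0.71), bmp6 (0.54) and bmpr2a (0.59) were also positive. Those of bmpr1ba (-0.84), bmp3 (-0.66), id3 (-0.60), id1 (-0.55) and gdf6a (-0.55) were negative. The bmp6 call was lost without DMSO replicate 2 or TP-0903 replicate 2 of 4 h, or without replicate 1 or 2 of either treatment at 8 h (adjusted p 0.0514 to 0.0645). The bmpr2a call was lost without DMSO replicate 4 of 4 h (0.0504) or TP-0903 replicate 1 of 8 h (0.0510), and the tgfb1a call without TP-0903 replicate 2 of 8 h (0.0626).

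**Figure D3:**
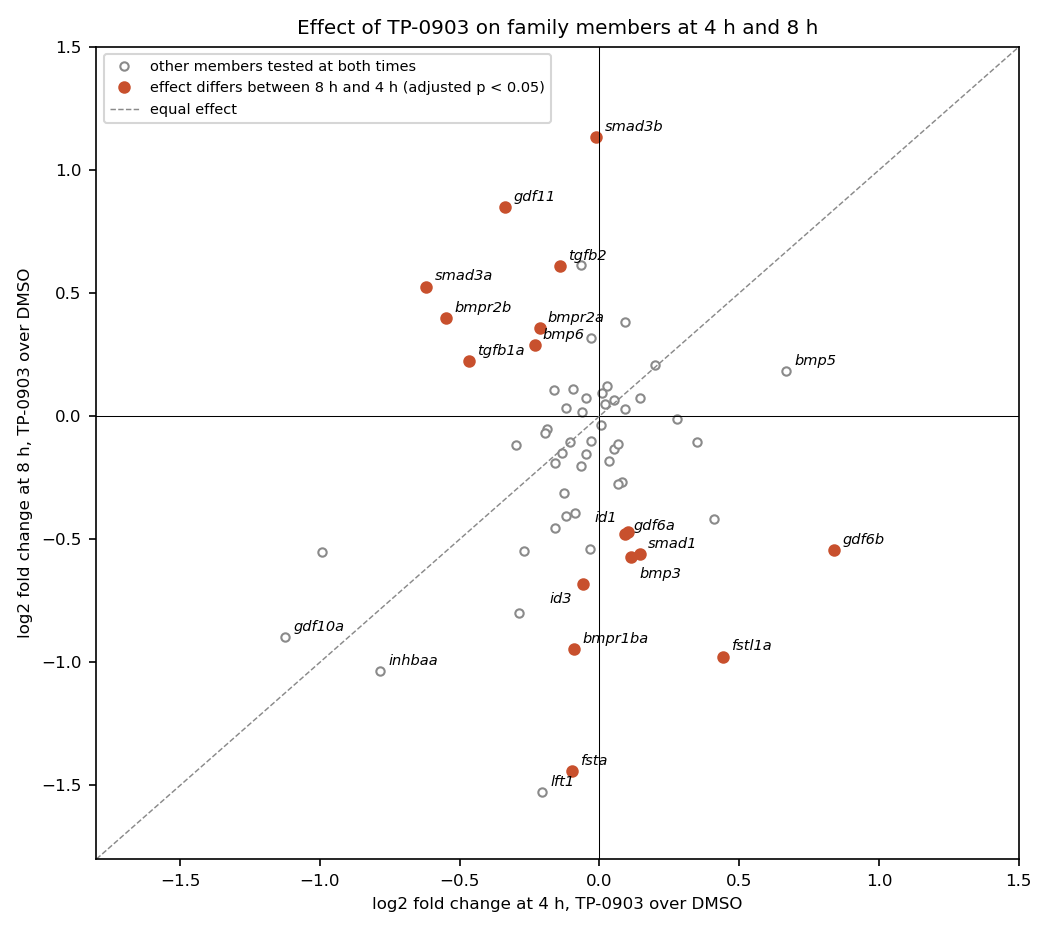
Log2 fold change of each member tested at both times, at 4 h on the horizontal axis and at 8 h on the vertical axis, with a dashed line where both are equal. The 17 filled points are members whose effect differed between the times, and 14 of them lie in the upper left or lower right part, where the signs are opposite. Of the 17, gdf6b alone was called at 4 h. The gene gdf10a lies in the lower left, below 0 at both times.

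After 1 h no member was called among 63 tested, and 0% of the 15530 genes tested passed (edgeR). The check gene cyp26a1 was not called either, although its groups did not overlap. A lack of calls at this time thus does not show a lack of response. At an unadjusted p under 0.05, 4 members (6.35%) stood beside 214 genes (1.38%), and DESeq2 called 0 members and 13 genes (0.0837%). For 20 of the 63 members, bmp2a among them, DESeq2 gave no adjusted p. No member had groups that did not overlap at 1 h, against 1.49% of genes. The 4 members were smad3a, smad3b, bmp2a and inhbaa, each lower with TP-0903, at log2 fold changes of -0.44, -0.43, -0.59 and -0.52. Their groups overlapped. The gene smad3b, for example, measured 13.2, 11.1, 11.05 and 8.99 CPM in DMSO libraries 1 to 4 and 7.51, 7.58, 8.58 and 9.49 CPM in TP-0903 libraries 1 to 4. TP-0903 replicate 4 lay inside the DMSO range and the others below it.

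Several members followed the libraries that stood apart at 1 h rather than the treatment groups. The level of id1 was 448, 393, 454 and 751 CPM in DMSO libraries 1 to 4 and 581, 358, 685 and 373 CPM in TP-0903 libraries 1 to 4, with DMSO replicate 4 and TP-0903 replicate 3 the highest. The same libraries were the highest for id3 (85.7, 76.6, 91.7 and 113 CPM in DMSO libraries 1 to 4 and 88.7, 75.2, 131 and 72.1 CPM in TP-0903 libraries 1 to 4). For lft1 they were again the highest (4.75, 6.13, 7.29 and 13.5 CPM in DMSO libraries 1 to 4 and 6.92, 6.08, 12.3 and 3.83 CPM in TP-0903 libraries 1 to 4), and for bmpr2b they were the lowest (32.5, 40.6, 33.6 and 15.3 CPM in DMSO libraries 1 to 4 and 20.2, 36.3, 11.6 and 34.1 CPM in TP-0903 libraries 1 to 4). Without these 2 libraries no member and 5 genes were called. TP-0903 replicate 1, which leaned the same way, was kept in that fit. A response to TP-0903 that changed from 1 h to 4 h was called for 0 of 63 members and for 0% of 16283 genes in the edgeR test, with 3 members and 343 genes at an unadjusted p under 0.05, and DESeq2 called 0 members and 7 genes.

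Other genes of the pathway were examined in lists put together from their known roles. The lists were chosen with earlier results of these data known, so their counts are not an independent test. Of 22 modulators and transducers tested at 4 h 2 rose and none fell, where 0.495% of all genes rose and 0.244% fell. These 2 genes, skib and skia, encode Ski co-repressors that bind Smads and dampen their activity. The level of skib was 54.8 ± 3.74 CPM in DMSO and 103 ± 11.2 CPM in TP-0903 libraries (log2 fold change 0.91, SE 0.10, edgeR adjusted p = 0.000875), and that of skia was 75.0 ± 7.79 CPM in DMSO and 128 ± 12.9 CPM in TP-0903 libraries (log2 fold change 0.77, SE 0.10, edgeR adjusted p = 0.00441). At 8 h skib was still higher (log2 fold change 0.48, SE 0.12, edgeR adjusted p = 0.00929), and skia was not called (adjusted p = 0.0553). Of the 20 tested at 8 h 2 rose (skib and crim1) and 2 fell (hfe2 and twsg1b), where 15.4% of all genes rose and 13.5% fell, and the median log2 fold change was -0.02. The gene hfe2, which encodes hemojuvelin, a BMP co-receptor made in muscle, had 47.2 ± 5.16 CPM in DMSO and 14.5 ± 1.80 CPM in TP-0903 libraries (log2 fold change -1.70, SE 0.11, edgeR adjusted p = 1.58e-07). Of the 12 muscle genes above 8 were higher and 2 lower at 8 h, and the part of muscle in the fall of hfe2 was not tested. The gene twsg1b encodes a Twisted gastrulation protein that binds BMPs and Chordin, and had 7.32 ± 1.89 CPM in DMSO and 4.34 ± 1.45 CPM in TP-0903 libraries (log2 fold change -0.76, SE 0.24, edgeR adjusted p = 0.027).

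Of 24 genes described as targets of BMP, Nodal or TGF-beta signaling, 12 fell at 8 h, 3 rose (gata3, gata2a and tbx2b) and 9 were not called, beside 13.5% and 15.4% of all genes called lower and higher. The median log2 fold change was -0.41, beside -0.01 over all genes. At 4 h none of 23 was called, where 0.74% of all genes were called, and their median was -0.15. The ventral homeobox genes vent, ved and vox, which BMP signaling induces in the gastrula, all fell from low levels. The level of vent was 4.42 ± 1.57 CPM in DMSO and 1.94 ± 0.537 CPM in TP-0903 libraries (log2 fold change -1.20, SE 0.29, edgeR adjusted p = 0.00625), that of ved was 3.99 ± 0.963 CPM in DMSO and 1.93 ± 0.238 CPM in TP-0903 libraries (log2 fold change -1.03, SE 0.23, edgeR adjusted p = 0.0047), and vox had a log2 fold change of -0.68. Among genes of the ectoderm and the neural plate border, msxe had 12.3 ± 2.56 CPM in DMSO and 6.998 ± 0.498 CPM in TP-0903 libraries (log2 fold change -0.82, SE 0.16, edgeR adjusted p = 0.00139) and dlx3b had 47.5 ± 7.97 CPM in DMSO and 27.8 ± 1.55 CPM in TP-0903 libraries (log2 fold change -0.77, SE 0.12, edgeR adjusted p = 0.000228). The gene ctgfa, a matricellular target of TGF-beta and of Yap, had 119 ± 35.3 CPM in DMSO and 64.4 ± 10.8 CPM in TP-0903 libraries (log2 fold change -0.89, SE 0.17, edgeR adjusted p = 0.0015). Several listed targets, such as tp63, foxi1 and dlx3b, are also genes of epidermal or placodal ectoderm, and the 8 epidermal markers were lower at the same time. The part of the epidermis in this count was not tested.

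**Figure D4:**
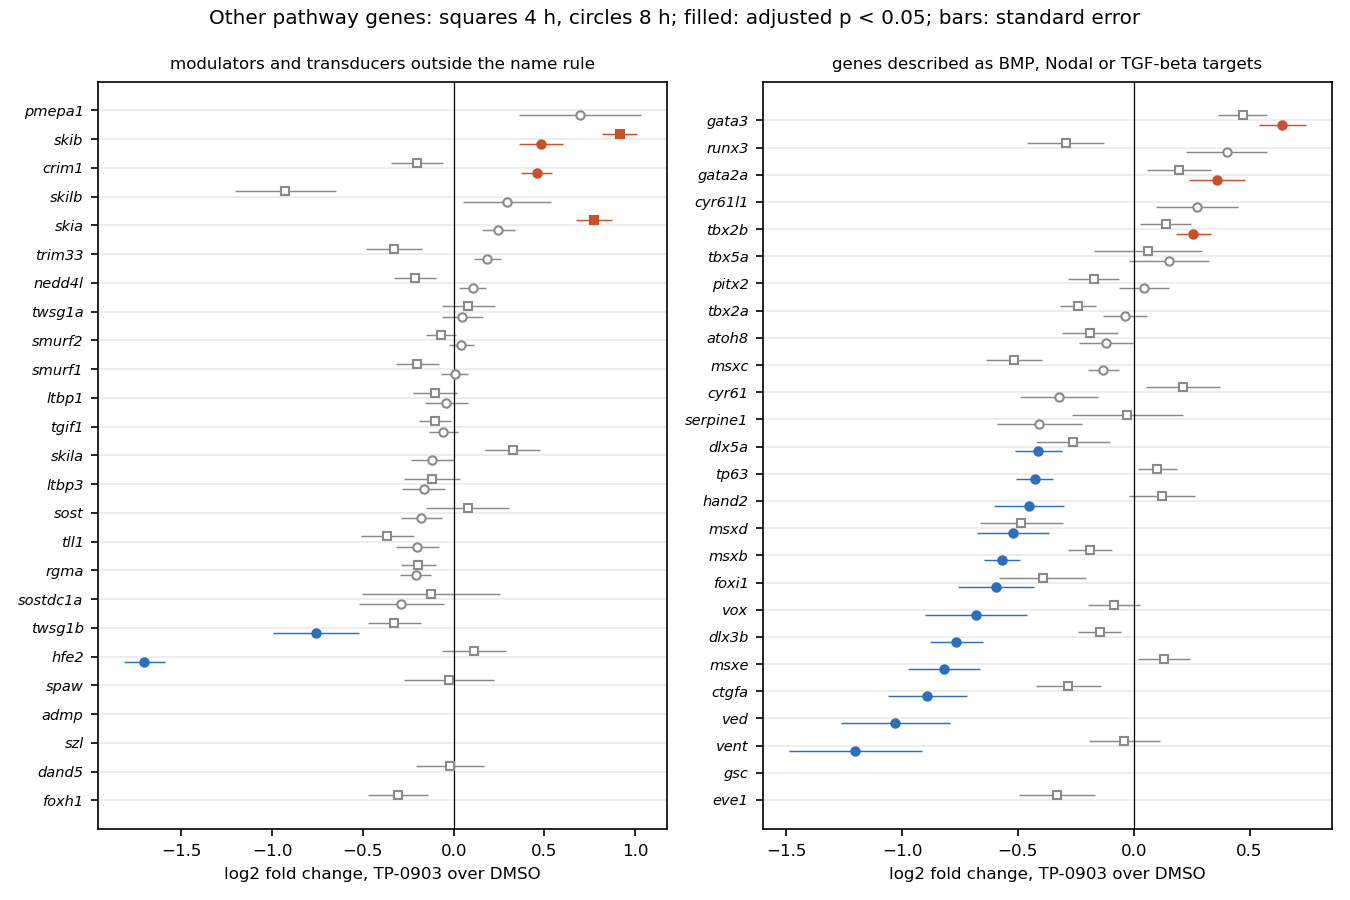
Log2 fold change of TP-0903 over DMSO at 4 h (squares) and 8 h (circles) for modulators and transducers outside the name rule (left) and for genes described as targets (right), with bars for the standard error and filled symbols for an adjusted p under 0.05. At 8 h 12 targets are filled below 0 and 3 above, and at 4 h the filled squares are skib and skia.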

How the data were processed

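Libraries were stranded and depleted of ribosomal RNA. The authors mapped single reads to zv9, splice junctions included, by Novoalign (2.08.03 in the submitters' processing notes), and USeq gave their raw counts for each Ensembl gene. Repetitive alignments were dropped, and whether the counting used strand is not given in the sources used here. The authors deposited raw counts and FPKM for each library, in 1 table per time point. They also deposited a log2 fold change and a score made from their FDR at each time point (6 columns in all), which were not used.

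Counts were tested in R 4.3.3 with edgeR 4.0.16 (filterByExpr, TMM, quasi-likelihood test), each time point apart, with Benjamini-Hochberg adjustment over all genes and a threshold of 0.05. The standard error is the absolute log2 fold change divided by the square root of F. Differences between times were fitted over the 16 libraries of 2 time points, and both such fits share the 4 h libraries. The 8 h data were deposited under a different label from the 1 h and 4 h data and list more genes. What these labels stand for is not stated, and time cannot be told apart from them between 8 h and the earlier times. Exact permutation tests of 4 libraries against 4 were used for single genes. FPKM served only to order levels. The alternatives were DESeq2 1.42.0, limma 3.58.1 voom, RLE factors, no filter, a block for replicate number, thinning of every library to 3879310 counts, and each library left out. The steps were also run on counts simulated with the fitted spread between libraries. Only genes with many reads were changed there and no library was made to stand apart. That run thus cannot tell how the steps do for low members or for the 1 h libraries. Precision for low genes is limited by the total counts per library.

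The members, the lists and the tests were chosen with earlier results of these data known. Genes named were members called at 1 h or 4 h, the 12 highest and 12 lowest called at 8 h, members whose effect differed between times, 20 symbols fixed for their role (17 of them listed), up to 10 called genes of the pathway lists, and cyp26a1. Roles were assigned after the symbols were seen, and other members were named after their values were seen. Counts cover all members, of which 1 is not reported here on its own. Coordinates and sequences are not given.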

Additional observations from a re-analysis of the deposited data

Results flagged for a closer look

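By the interaction test, 17 members responded differently to TP-0903 at 8 h and at 4 h. As the log2 fold change at 8 h minus that at 4 h, the values were -1.40 for fstl1a, -1.36 for gdf6b, -1.32 for fsta, -0.84 for bmpr1ba, -0.69 for smad1, -0.66 for bmp3, -0.60 for id3, -0.55 for id1 and -0.55 for gdf6a. In the other direction they were 1.21 for gdf11, 1.16 for smad3b, 1.16 for smad3a, 0.97 for bmpr2b, 0.77 for tgfb2, 0.71 for tgfb1a, 0.59 for bmpr2a and 0.54 for bmp6.

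In 6 of the 152 groups of 4 libraries that were examined, 1 library lay far from the others, with a gap to its nearest neighbour above Dixon's critical share of the whole range. Chance alone gives such a group about 1 time in 20, or 7.6 here. At 1 h, id1 stood at 751 CPM in DMSO replicate 4 and at 393 to 454 CPM in the other DMSO libraries (0.830 of the range). The inhibitory gene smad7 stood at 18.2 CPM in TP-0903 replicate 3 of 1 h and at 28.7 to 30.6 CPM in the others (0.846). At 8 h, fstl1b stood at 508 CPM in DMSO replicate 1 and at 548 to 550.2 CPM in the others (0.944), and smad6b stood at 48.4 CPM in DMSO replicate 3 and at 43.3 to 43.9 CPM in the others (0.887). The gene tgfb3 stood at 34.3 CPM in TP-0903 replicate 4 of 8 h and at 32.1 to 32.4 CPM in the others (0.861). The total count was 7663030 in DMSO replicate 2 of 1 h and 3879310 to 4376883 in the other DMSO libraries of that time (0.868).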

How the results depend on the processing

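No result reversed. Over all genes at 1 h, where the main test called 0, DESeq2 called 13, limma voom 1, the fit without DMSO replicate 4 and TP-0903 replicate 3 called 5, and fits without 1 library 0 to 2 (2 without DMSO replicate 4). At 4 h DESeq2 called 215 genes of the whole table, 212 of them among those edgeR tested, and the replicate block 223, against 118, and fits without 1 library called 56 to 131 (66, 74, 60 and 56 without DMSO replicates 1 to 4, and 63 without TP-0903 replicate 1). Members called at 4 h were 1 when libraries were thinned and 1 to 3 without 1 library. At 8 h the members called were 24 to 30 and all genes 3847 to 5314 without 1 library, and 22 and 3600 when thinned. Members whose effect differed between 8 h and 4 h were 15 to 19 without 1 library, and all genes 1453 to 2546. Between 4 h and 1 h DESeq2 called 7 genes. An alternative in which a gene was too low to be tested was not counted, as happened at 8 h. Of 405 alternatives to the 29 member calls at 8 h, 30 lost the call, in 9 genes. The other 20 genes kept it under every alternative in which they were tested. The same held for 13 of the 17 differences and, at 4 h, for 1 of 3 calls.

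The replicate numbers were not taken to pair the libraries, since at no time did every same-numbered pair correlate above 0.1. The correlation of their deviations from the group means was -0.76 to 0.63 at 1 h, 0.084 to 0.47 at 4 h and -0.11 to 0.069 at 8 h, and not every library correlated best with its own number. At 4 h all 4 values were positive and 3 were above 0.1. With the replicate block 0, 4 and 27 members were called at 1, 4 and 8 h, and 17 differences between 8 h and 4 h. The calls lost with the block were bmp2b and bmp6 at 8 h (adjusted p = 0.0556 and 0.0805) and the bmp6 difference (0.0524), so that 1 other member entered the 17.

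Depth limits the low members most. The genes lft1, inhbaa and fstl5 rested on few reads at 8 h, and 4 members there were too low to test.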

Other observations

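In the DMSO libraries several members differed in level over the hours covered. These levels come from tables made separately, that of 8 h under a different label, and were not tested between times. The ligand gene bmp7a measured 24.03 to 42.6 CPM at 1 h, 8.64 to 11.03 CPM at 4 h and 4.52 to 5.76 CPM at 8 h. In contrast, bmp5 measured 1.85 to 3.25, 7.32 to 8.32 and 13.7 to 17.7 CPM at these times. The ligand gene tgfb3 followed the same order as bmp5, with 5.52 to 8.00, 17.9 to 19.4 and 28.3 to 38.2 CPM, and so did gdf10a, with 2.21 to 3.44, 4.99 to 6.36 and 8.82 to 10.3 CPM. For each of these genes the ranges at the 3 times did not overlap. The pseudoreceptor gene bambia was at 89.5 to 111 CPM, 67.9 to 84.8 CPM and 44.5 to 50.8 CPM. The genes were chosen after their values were seen, as the lowest ratio of 8 h to 1 h, the highest ratios and a fixed name.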
